A study of Mus musculus with 6 samples.

Results

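Mitochondrial ribosomal proteins are the protein subunits of the ribosome inside mitochondria, and their transcripts were measured here in mouse dorsal root ganglia (DRG), where sensory neuron cell bodies lie wrapped in glia. The genes were taken by name: symbols of the Mrpl and Mrps series, plus Gadd45gip1, Dap3 and Ptcd3, with at least 10 counts in 3 or more pools. Of 55809 gene symbols, 81 matched by name and 80 met the count minimum, 51 of the large subunit, 28 of the small subunit and Mrps36. Mrps36 carries a ribosomal name but is now known as a component of the 2-oxoglutarate dehydrogenase complex, so it was assigned to neither subunit. All 80 passed the low-count filter and were tested.

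Both groups were C57BL6J mice at 8 weeks of age, and the labels name no transgene or mutation in either. The prenatal stress group was born to dams held in tubes under a bright light in 3 daily sessions of 30 minutes, from E13 to E18 in the protocol label and from E13.5 to E18.5 in the series design. The control group was born to undisturbed dams. Each group had 3 libraries, and each library was made from poly-A RNA of the ganglia of 3 pooled mice. The protocol label gives 3 mice per group and the series design gives 9. The labels name no litter and no sex for a pool, so the tests see variation among pools but not among litters. The labels say that both sexes were used, whereas Xist, which is transcribed from the inactive X of females, was counted 9 to 19 times per pool and the Y-linked Ddx3y stood at 77.5 to 81.1 CPM in all 6 (CPM, the usual depth-scaled count, with TMM factors).

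Mitochondria keep a small genome of their own, and every protein it encodes belongs to the respiratory chain or the ATP synthase. Mitochondrial ribosomes translate those transcripts and nothing else. Their ribosomal RNAs come from the mitochondrial genome, but all of their proteins are encoded in the nucleus, made in the cytosol and imported. Compared with the bacterial ribosome they have lost RNA and gained many proteins found only in mitochondria. Sensory neurons, with axons that can span a limb, depend heavily on mitochondrial energy supply.

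The libraries held 51.7 to 87.4 M gene counts. Gadd45gip1, for example, rested on 939 to 1565 reads per pool. The 12 neuronal markers summed to 16290 to 17150 CPM in the 6 pools, so markers of the labelled tissue were present throughout. Control pool 3 stood apart by its skeletal muscle markers, which summed to 2424 CPM there and to 17.5 to 54.0 CPM in the other 5 pools. The mitochondrial ribosomal transcripts of that pool summed to 2259 CPM, between the sums of the other control pools. Other neighbouring tissues and blood also varied between pools without following the groups: spinal cord markers summed to 49.0 to 341.2 CPM, red cell markers to 96.8 to 665 CPM and neutrophil and marrow markers to 42.9 to 395.1 CPM, the last 2 lowest in stress pool 1 and highest in stress pool 3. The 8 satellite glia markers summed to 2685 ± 109 CPM in controls and 2411 ± 71 CPM in the stress pools (SD, n = 3 pools each), and all 8 had negative fold changes. All 8 myelinating Schwann cell markers were negative too, with sums of 7814 ± 580 and 7493 ± 1060 CPM. Their part in the results below was not tested, and in bulk tissue fewer cells of a type and less RNA per cell cannot be told apart.

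The promoters of mitochondrial ribosomal protein genes are known for binding sites of ETS-family factors such as GABP, of NRF1 and of YY1, factors that act on many nuclear genes for mitochondrial proteins. RefSeq promoters of build GRCm38.p6, from 250 bases before to 50 bases after each gene's start, were matched for 69 of the 80 genes. Gadd45gip1 had no entry among them. Some genes, such as Mrpl48, had several promoter entries, and a match in any of them counted for the gene. The letters CCGGAAG (the ETS core) occurred on either strand for 25 of these 69 genes (36.2%). Of all genes tested, 13578 had a promoter entry and 16.4% of these held the core. GCGCANGCG (the NRF1 site) occurred in 16 (23.2%, against 12.6%) and AAGATGGCG (the YY1 site) in 9 (13.0%, against 2.79%). At least 1 of the 3 motifs was found for 60.9% of the genes with an entry here and for 55.6% of those of cytosolic ribosomal proteins. The share was 55.0% for nuclear respiratory chain genes and 27.9% for all. A match describes the letters of the window and is not shown to be a bound site. The promoters of 4 genes named below, none of which passed the main test, are shown with their motif matches in capitals. All 4 hold the ETS core, which most of the 69 do not. The first 3 belong to large subunit genes with some of the highest fold changes, and the last to the large subunit gene with the lowest.
Mrpl43 promoter, chr19:45006393-45006692, minus strand, GRCm38.p6: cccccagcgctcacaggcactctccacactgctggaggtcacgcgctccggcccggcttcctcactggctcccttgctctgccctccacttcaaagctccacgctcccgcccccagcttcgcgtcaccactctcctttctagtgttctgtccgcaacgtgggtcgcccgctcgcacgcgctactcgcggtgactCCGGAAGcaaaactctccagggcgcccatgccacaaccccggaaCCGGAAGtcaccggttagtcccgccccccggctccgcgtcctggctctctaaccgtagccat
Mrpl57 promoter, chr14:57825989-57826288, plus strand, GRCm38.p6: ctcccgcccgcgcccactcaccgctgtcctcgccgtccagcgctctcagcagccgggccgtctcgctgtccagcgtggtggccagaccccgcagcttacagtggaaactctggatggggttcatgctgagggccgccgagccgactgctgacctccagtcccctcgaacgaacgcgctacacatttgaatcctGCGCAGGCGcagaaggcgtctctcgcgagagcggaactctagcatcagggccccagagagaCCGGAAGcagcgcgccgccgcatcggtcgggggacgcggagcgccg
Mrpl34 promoter, chr8:71464676-71464975, plus strand, GRCm38.p6: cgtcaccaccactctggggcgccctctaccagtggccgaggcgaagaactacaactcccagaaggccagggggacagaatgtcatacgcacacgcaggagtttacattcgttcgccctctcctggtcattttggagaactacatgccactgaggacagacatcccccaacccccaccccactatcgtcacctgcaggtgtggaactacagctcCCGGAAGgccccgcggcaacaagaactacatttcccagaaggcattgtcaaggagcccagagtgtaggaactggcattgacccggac
Mrpl51 promoter, chr6:125191950-125192249, plus strand, GRCm38.p6: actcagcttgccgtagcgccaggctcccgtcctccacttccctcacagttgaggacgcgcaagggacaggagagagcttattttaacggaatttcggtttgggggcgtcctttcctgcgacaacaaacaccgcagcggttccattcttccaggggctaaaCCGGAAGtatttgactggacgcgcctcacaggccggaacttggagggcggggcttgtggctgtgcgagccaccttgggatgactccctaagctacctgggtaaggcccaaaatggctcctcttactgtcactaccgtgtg
Of the 12 genes with an unadjusted p under 0.05 and higher levels in the stress pools, 10 had a promoter entry and 7 of these held the ETS core. Of the 7 genes with such a p and lower levels, all had an entry and 4 held it. The NRF1 site was held by 4 of the 10 higher genes and 1 of the 7 lower genes, and the YY1 site by 1 of each. Each motif was thus present on both sides of the comparison, and whether the sides differ was not tested.

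The comparison asked which of these transcripts differed between adult ganglia of offspring of stressed and undisturbed dams. The total output of the set was nearly the same in both groups. Summed over the 80 genes, the level was 2263, 2245 and 2259 CPM in control pools 1 to 3 and 2250, 2240 and 2247 CPM in prenatal stress pools 1 to 3. The groups overlapped, and their means of 2256 ± 9.21 and 2246 ± 5.1 CPM (SD, n = 3 pools each) differed by -0.007 on the log2 scale. The large subunit summed to 1506, 1491 and 1507 CPM in controls and 1504, 1492 and 1491 CPM after stress. The small subunit summed to 734.6, 733.9 and 730.7 CPM in controls and 726.7, 727.2 and 734.5 CPM after stress. In both subunits the pools of the groups overlapped in these sums. Summed as CPM per kilobase of transcript, the large subunit overlapped too, but the small subunit did not. Its values were 464.3, 466.7 and 462.8 in controls and 457.2, 457.5 and 460.5 after stress, a log2 ratio of -0.019. The 46 proteins classed as having a bacterial counterpart summed to 1233 ± 7.49 CPM in controls and 1224 ± 4.82 CPM after stress. The 33 classed as mitochondria-specific summed to 1001 ± 1.32 and 1002 ± 4.22 CPM. The second class includes Mrps18a and Mrps18b, although both are relatives of a bacterial protein.

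**Figure D1:**
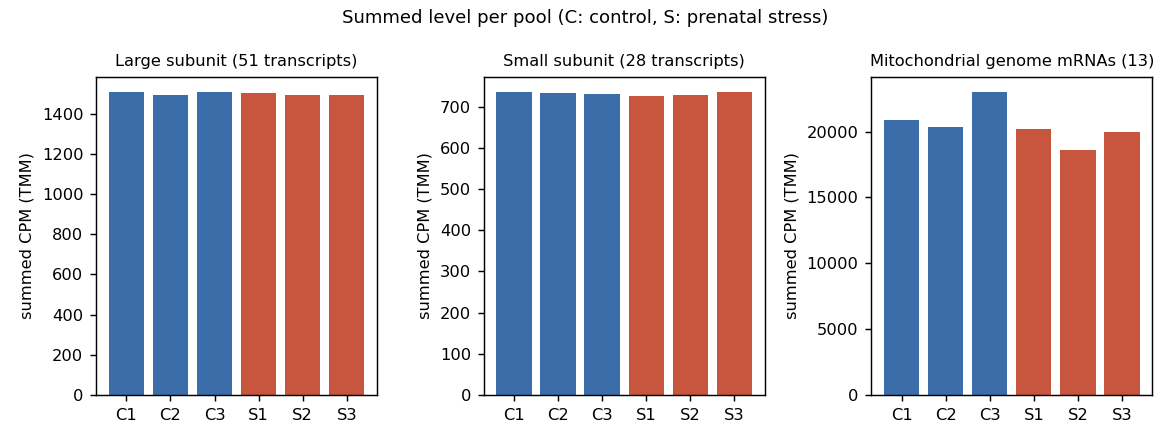
Summed level (CPM, y axis from 0) in each of the 3 control pools (C1 to C3, blue) and 3 prenatal stress pools (S1 to S3, red), for the 51 large subunit transcripts, the 28 small subunit transcripts and the 13 mRNAs of the mitochondrial genome. Both ribosomal sums are level across the 6 pools, while the mitochondrial genome mRNAs range from 18610 CPM in stress pool 2 to 22980 CPM in control pool 3.

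Gene by gene, 1 of the 80 passed the test (edgeR quasi-likelihood test, Benjamini-Hochberg adjusted p under 0.05 over all 20146 genes tested), and it was higher in the stress pools. With the replicate number as a block, 0 of the 80 passed, 17 had an unadjusted p under 0.05 in either direction, and DESeq2 without the block called 5. Across all genes the edgeR test without the block called 0.129%, and 0.0844% were called higher. With the block it called 22 of the 20146 genes, and DESeq2 called 2.2% of those to which it gave an adjusted p. The median log2 fold change of the 80, stress over control, was -0.02 against 0.01 for all genes, and 34 values were positive and 46 negative. Values ran from -0.13 to 0.46, with the middle 50% between -0.07 and 0.03. Within 0.1 of no change lay 62 of the 80 (77.5%), against 56.4% of all genes. The median SE of a fold change was 0.044 here and 0.085 over all genes, and the median coefficient of variation between pools was 2.63% in controls and 2.68% after stress.

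Small differences were nonetheless more frequent than the single call. At an unadjusted p under 0.05, 12 genes (15.0%) were higher and 7 (8.75%) lower, against 6.01% and 5.11% of all genes tested. The 3 stress pools lay above all 3 control pools for 15 genes (18.8%) and below them for 17 (21.2%), against 9.33% and 8.76% of all genes. These shares are not matched for precision: the median SE of a fold change was 0.044 here and 0.085 over all genes. The part of that difference in the shares was not tested. The 12 higher genes reached larger folds, from 0.12 to 0.46, than the 7 lower genes, from -0.13 to -0.09. By subunit, 9 large and 3 small subunit genes were on the higher side and 3 large and 4 small on the lower side. Of the 33 proteins classed as mitochondria-specific, 8 were higher and 2 lower at that p. Of the 46 classed as having a bacterial counterpart, 4 were higher and 5 lower. Whether these subsets differ was not tested.

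**Figure D2:**
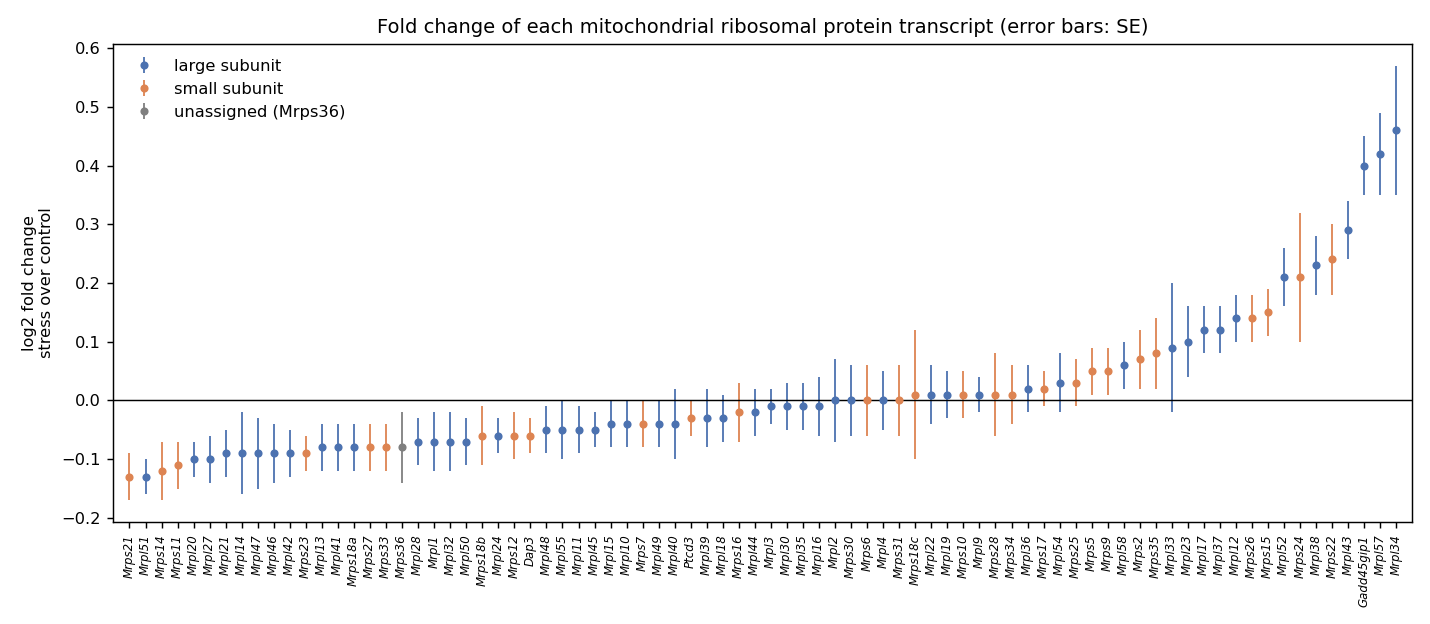
Log2 fold change of prenatal stress over control (y axis) for each of the 80 transcripts, ordered by value, with the large subunit in blue, the small subunit in orange and Mrps36 in grey. Points are edgeR estimates from 3 against 3 pools and bars are their SE; most lie within 0.1 of zero, and the right-hand tail, up to 0.46, is longer than the left, which ends at -0.13.

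Gadd45gip1 was the gene that passed. It encodes mL64, also called CRIF1, a large subunit protein that is known to bind other proteins near the tunnel through which the new peptide leaves, and that was first described as a nuclear partner of the Gadd45 growth arrest proteins. Its level was 14.9, 14.5 and 15.1 CPM in control pools 1 to 3 and 20.2, 19.3 and 19.3 CPM in stress pools 1 to 3. Every stress pool lay above every control pool. The means were 14.8 ± 0.331 and 19.6 ± 0.538 CPM, a 1.32-fold rise (log2 fold change 0.40 ± 0.05 SE, adjusted p = 0.0443). With the replicate number as a block the fold was 0.40 and the adjusted p 0.111. Leaving out control pool 1, 2 or 3 gave an adjusted p of 0.182, 0.309 or 0.135, and leaving out stress pool 1, 2 or 3 gave 0.277, 0.159 or 0.111, with folds between 0.37 and 0.42. Over all 15 alternatives the adjusted p ranged from 1.95e-06 to 0.309, and 8 of them called the gene.

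The next 4 genes were all of the large subunit. Each stood higher in every stress pool than in every control pool, and none passed the edgeR test. Mrpl43 (mL43, found only in mitochondrial ribosomes) was at 24.3, 25.2 and 26.5 CPM in controls and 31.2, 31.5 and 30.5 CPM after stress. Its log2 fold change was 0.29 ± 0.05 (adjusted p = 0.112). In GENCODE M21, 33.4% of its exon bases lie opposite exons of Twnk, the mitochondrial DNA helicase, and whether the counting used strand is not stated in the sources used here. Twnk was at 0.05 ± 0.05. Mrpl57 (mL63, also found only in mitochondria) was at 10.2, 9.80 and 10.7 CPM in controls and 12.9, 14.6 and 13.7 CPM after stress, a difference of 0.42 ± 0.07 (adjusted p = 0.12). Mrpl38 (mL38), a protein of the central protuberance at the top of the large subunit, was at 24.4, 25.4 and 25.7 CPM in controls and 29.1, 31.1 and 28.5 CPM after stress, a difference of 0.23 ± 0.05 (adjusted p = 0.234). Mrpl34 (bL34m), a small protein that bacteria also have, was at 7.67, 9.52 and 9.98 CPM in controls and 12.9, 13.0 and 11.5 CPM after stress. Its 0.46 ± 0.11 was the highest fold change of the 80 but had a wider error (adjusted p = 0.273), and control pool 1 lay well below the other controls. DESeq2, run as an alternative, called these 4 and Gadd45gip1 (adjusted p of 0.000359 for Mrpl43, 0.000533 for Mrpl57, 0.0167 for Mrpl38 and 0.0119 for Mrpl34). DESeq2 called 2.2% of the 15004 genes to which it gave an adjusted p.

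The remaining 7 higher genes had smaller differences. In the large subunit, Mrpl52 (mL52) was at 14.7 CPM in each control pool and at 17.9, 16.6 and 16.5 CPM after stress, a log2 fold change of 0.21 ± 0.05 (adjusted p = 0.288). Mrpl12 (bL12m) forms the flexible stalk that recruits translation factors and is also known to bind the mitochondrial RNA polymerase. It was at 35.1, 35.9 and 36.5 CPM in controls and 38.6, 39.5 and 40.5 CPM after stress, a difference of 0.14 ± 0.04 (adjusted p = 0.29). Mrpl17 (bL17m) and Mrpl37 (mL37) each stood 0.12 ± 0.04 higher, and with the GC content and length correction Mrpl17 was at 0.06. In the small subunit, Mrps22 (mS22), whose human gene is mutated in a mitochondrial disease, was at 13.6, 13.3 and 14.6 CPM in controls and 16.4, 15.9 and 16.7 CPM after stress, a difference of 0.24 ± 0.06 (adjusted p = 0.273). Mrps15 (uS15m), which binds the small ribosomal RNA, was at 22.0, 22.2 and 22.1 CPM in controls and 24.4, 24.4 and 25 CPM after stress, a difference of 0.15 ± 0.04 (adjusted p = 0.286). Mrps26 (mS26) was at 24.8, 24.0 and 23.6 CPM in controls and 26.9, 26.5 and 26.4 CPM after stress, a difference of 0.14 ± 0.04 (adjusted p = 0.337). In none of these 7 did the pools of the groups overlap.

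The 7 lower genes had fold changes no further from 0 than -0.13. Mrpl51 (mL51, found only in mitochondria) was at 65.5, 64.1 and 65.5 CPM in controls and 60.6, 59.1 and 59.0 CPM after stress, a log2 fold change of -0.13 ± 0.03 (adjusted p = 0.273). Mrps21 (bS21m), the counterpart of a small bacterial protein, was at 29.9, 30.6 and 28.9 CPM in controls and 27.4, 27.3 and 27.2 CPM after stress, a difference of -0.13 ± 0.04 (adjusted p = 0.355). Mrpl20 (bL20m) was at 48.4, 48.4 and 48.7 CPM in controls and 44.8, 45.4 and 45.9 CPM after stress, a difference of -0.10 ± 0.03 (adjusted p = 0.364). The stress pools of all 3 genes lay below every control pool. Mrpl27 (bL27m), Mrps23 (mS23), Mrps14 (uS14m) and Mrps11 (uS11m) had values of -0.10, -0.09, -0.12 and -0.11 and did not overlap between groups either. Mrps14 is the lowest value after Mrpl51 and Mrps21, and its adjusted p was 0.416.

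**Figure D3:**
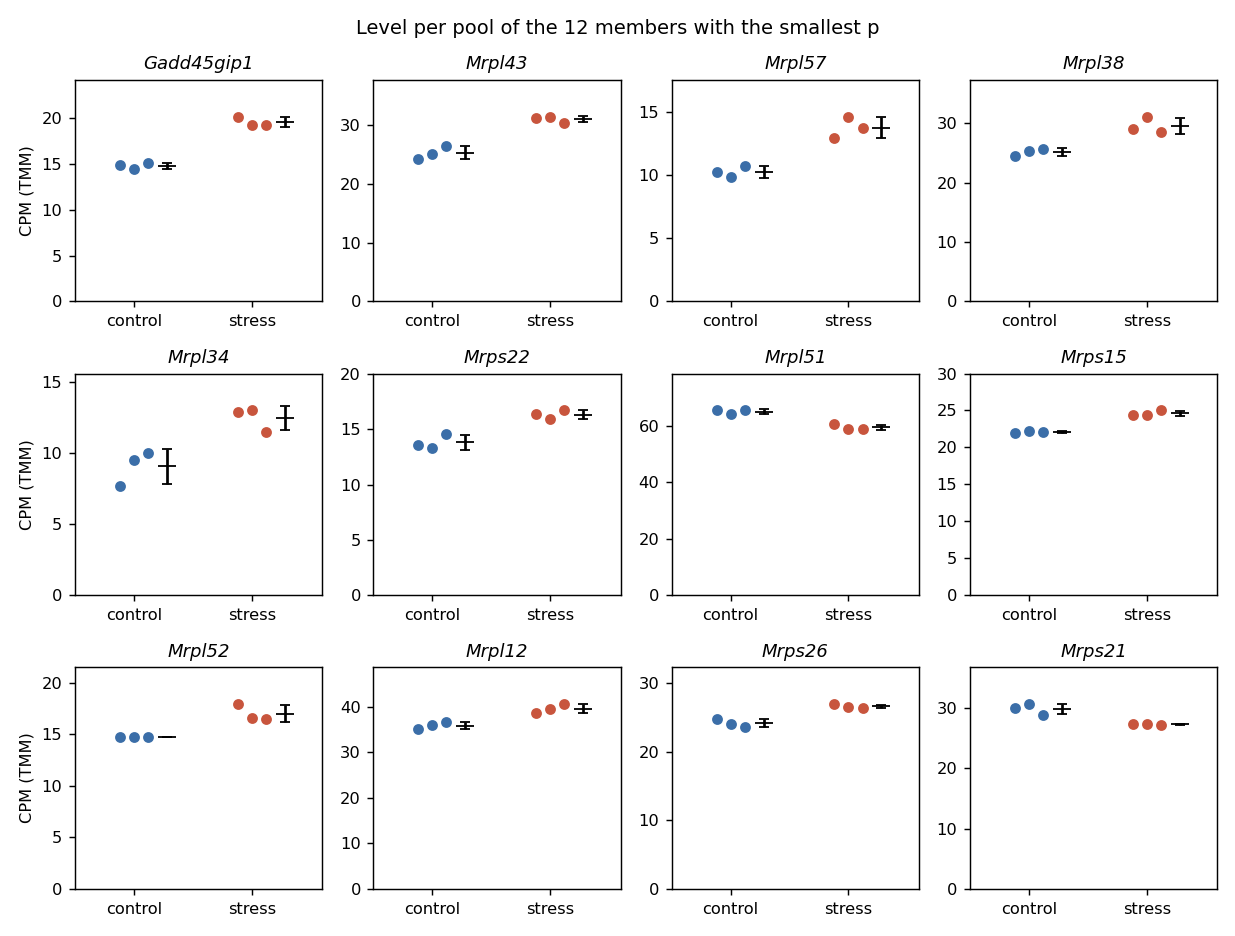
Level in CPM (y axis from 0, own scale per panel) of the 12 transcripts with the smallest p in each control pool (blue) and each prenatal stress pool (red), with mean and SD in black. The groups do not overlap in any panel; Gadd45gip1 is the transcript whose adjusted p is under 0.05, and Mrpl51 and Mrps21 are the 2 panels in which the stress pools are lower.

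Other proteins at the exit tunnel had values nearer to 0. Of the other 8 genes grouped here with the exit tunnel, Mrpl17 has been given above and the rest ranged from -0.09 to 0.10. Mrpl23, Mrpl22 and Mrpl24, which line the tunnel exit as their bacterial counterparts do, had log2 fold changes of 0.10 ± 0.06, 0.01 and -0.06. Mrpl45, which is known to tie the ribosome to the inner membrane, was at -0.05, Mrpl47 at -0.09, Mrpl39 at -0.03 and Mrpl44 at -0.02. Of the stalk and its base, Mrpl10, which anchors Mrpl12, was at -0.04, Mrpl11 at -0.05 and Mrpl54 at 0.03. None of these genes passed the test. With Gadd45gip1 counted, edgeR gave an unadjusted p under 0.05 to 2 of the 9 exit tunnel genes and 1 of the 4 stalk genes, all higher. Of all genes tested, 11.1% had such a p in either direction and 6.01% on the higher side. DESeq2 called Gadd45gip1 alone among the exit tunnel and stalk genes.

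Dap3 and Ptcd3 are small subunit proteins without the family name. Dap3 (mS29), a GTP-binding protein that was first described as a mediator of cell death, was at 53.6, 56.1 and 54.9 CPM in controls and 53.4, 51.9 and 52.4 CPM after stress. Its log2 fold change was -0.06 ± 0.03 (adjusted p = 0.528), and its highest stress pool lay just under its lowest control pool. Ptcd3 (mS39), a pentatricopeptide repeat protein at the entry of the mRNA channel, was at 51, 52.1 and 51.7 CPM in controls and 49.5, 51.8 and 50.4 CPM after stress, a difference of -0.03 ± 0.03 with overlapping pools. Mitochondria have 3 relatives of bacterial protein S18, which sit at different places in the ribosome. Mrps18a (mL66), which belongs to the large subunit, averaged 39.6 CPM in controls and 37.5 CPM after stress (-0.08 ± 0.04). Mrps18b (mS40) averaged 21.9 and 21.0 CPM (-0.06 ± 0.05), and Mrps18c (bS18m), which occupies the bacterial site, 2.88 and 2.90 CPM (0.01 ± 0.11). Per kilobase of transcript these 3 stood at 43.6, 19.9 and 3.52 CPM over the 6 pools. Mrps18c shares 23.2% of its exon bases with the same-strand gene Gm43511, and reads in shared bases are dropped by a counter that leaves out ambiguous reads.

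Although the proteins assemble in equal copies, with Mrpl12 the known exception, their mRNA levels per kilobase of transcript spanned a 19.0-fold range, from 3.24 to 61.4 CPM per kb, around a median of 18.2. The large subunit had a median of 19.3 and the small subunit of 13.2 CPM per kb, and the cytosolic ribosomal proteins had a median of 122. At the top stood Mrpl20 at 61.4 ± 2.28, Mrpl41 at 58.5 ± 2.52 and Mrps21 at 58.5 ± 3.06 CPM per kb (SD, n = 6 pools), followed by Mrpl42 at 56.9 ± 2.56 and Mrpl27 at 54.7 ± 2.44. Each of these lay within 1 SD or so of its neighbour in the order, whereas the next, Mrps18a at 43.6 ± 1.85, was clearly lower. At the bottom stood Mrpl17 at 4.16 ± 0.208, Mrps18c at 3.52 ± 0.21 and Mrps35 at 3.24 ± 0.136 CPM per kb. Mrpl17 did not differ from the gene above it, Mrpl57 at 4.17 ± 0.699, beyond their spread, whereas the last 2 steps were each larger than the SDs. The lengths were those of the longest annotated transcript, and the order depends on them. Mrpl17 has an annotated transcript of 7300 bases, and per kilobase of coding sequence it ranked 26th. Mrpl51, 40th per kilobase of transcript with 3427 bases, was the highest per coding kilobase at 162 CPM. Mrps18c was the lowest per coding kilobase at 6.73 CPM.

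**Figure D4:**
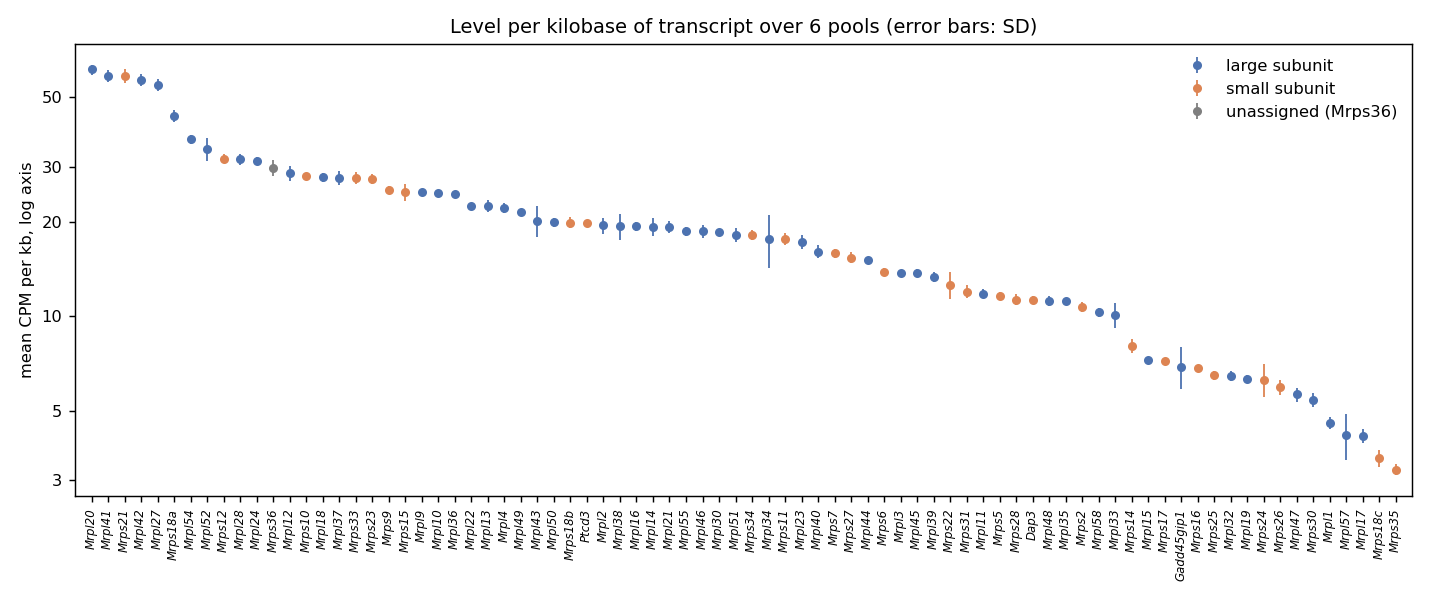
Mean level over all 6 pools in CPM per kilobase of the longest annotated transcript (log y axis) for the 80 transcripts in descending order; error bars are the SD over the 6 pools, with the large subunit in blue, the small in orange and Mrps36 in grey. The first 5, from Mrpl20 to Mrpl27, lie between 54.7 and 61.4, and the last, Mrps35, is at 3.24.

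Mrpl53 was the gene left out by the count minimum. It encodes a large subunit protein near the stalk and was listed at 0 in all 6 pools. In GENCODE M21, 88.0% of its exon bases are shared on the same strand with the read-through gene Gm42688, which had 37 to 80 counts per pool, so its level cannot be read from these counts. Nme3, which shares exon bases with Mrps34 on the same strand, was also listed at 0. In all, 9 of the 81 genes share exon bases with another gene on the same strand and 30 on the opposite strand. Pseudogene transcripts match 24 of the 80 with at least 90% identity over 200 bases, and reads that align equally well to both are tallied as not unique and left out of the counts. The 24 had a median log2 fold change of -0.06 and the other 56 of -0.01. At an unadjusted edgeR p under 0.05, 2 of the 24 were higher and 4 lower, against 10 and 3 of the other 56. Gadd45gip1, Mrpl43, Mrpl57, Mrpl38 and Mrpl34 had no such match, whereas Mrpl51 and Mrps21 on the lower side did. The part of these matches in the fold changes was not tested. Across the 80 genes, the fold change had a Spearman rho of 0.07 with GC content and 0.09 with transcript length, against -0.04 and 0.15 across all genes with a length. These values describe genes within the same libraries, which are not independent of each other.

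The lists of assembly factors, translation factors, mitochondrial genome expression genes and regulators had medians from -0.02 to 0.04. Chchd1 (mS37) and Aurkaip1 (mS38), small subunit proteins without the family name, were lower, with log2 fold changes of -0.08 ± 0.04 and -0.05 ± 0.04. Of 27 factors that assemble the ribosome or modify its RNA, edgeR and DESeq2 called 0, and at an unadjusted edgeR p under 0.05 there were 1 higher and 2 lower (15 positive, median 0.01). The higher one was Gtpbp6, a GTPase of late large subunit assembly that also recycles ribosomes, at 24.4, 26.3 and 25.5 CPM in controls and 29.6, 29.1 and 28.1 CPM after stress (0.19 ± 0.04, adjusted p = 0.275). The rRNA methyltransferase Nsun4 was at -0.12 ± 0.04 and the pseudouridine synthase Rpusd4 at -0.14 ± 0.05. Of 15 translation factors 0 were called by either tool, and at an unadjusted edgeR p under 0.05 Taco1, a translational activator of cytochrome c oxidase subunit 1, stood at 0.16 ± 0.06 and the elongation factor Tsfm at 0.15 ± 0.06. Of 16 genes that copy, transcribe or process the mitochondrial genome and its products, 0 were called by either tool and 1, the DNA polymerase Polg, had an unadjusted p under 0.05 (0.08 ± 0.03). Of 9 regulators of mitochondrial gene expression, Nrf1, Gabpa and Yy1 among them, 0 were called by either tool and 0 had an unadjusted p under 0.05 (median 0.04).

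Mitochondrial tRNA synthetases and the products of mitochondrial transcription showed a few larger values. Of 21 genes that charge mitochondrial tRNAs, edgeR called 0 and DESeq2 1, with 1 higher and 1 lower at an unadjusted edgeR p under 0.05. Lars2, which charges leucine tRNA, was at 90.8, 121 and 89.5 CPM in controls and 67.2, 73.5 and 77.9 CPM after stress. Its log2 fold change was -0.46 ± 0.12 (edgeR adjusted p = 0.29), and control pool 2 lay above the other controls. The amidotransferase subunit Gatc stood at 0.12 ± 0.04. The 13 mRNAs translated by these ribosomes summed to 21420 ± 1380 CPM in controls and 19600 ± 873 CPM after stress (SD, n = 3 pools each), a log2 ratio of -0.128. Control pool 3, with its muscle markers, had the highest sum, and without it the ratio was -0.074 and the median of the 13 was -0.05. Of the 13, 3 had positive values (median -0.10), edgeR called 0 and DESeq2 1, and mt-Nd2 at -0.21 ± 0.07 and mt-Nd1 at -0.18 ± 0.06 were lower at an unadjusted p under 0.05 (-0.15 and -0.12 without control pool 3). The mitochondrial ribosomal RNAs mt-Rnr1 and mt-Rnr2 were at -0.18 ± 0.14 and -0.15 ± 0.16, in libraries selected for poly-A. Of 10 genes of the mitochondrial unfolded protein response, edgeR and DESeq2 called 0, with 1 higher (Atf5, 0.16 ± 0.06) and 3 lower at an unadjusted edgeR p under 0.05, among them Ddit3 at -0.16 ± 0.05 and the chaperonin Hspe1 at -0.10 ± 0.03.

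A pair of larger gene sets with which the mitochondrial ribosome is often grouped had lower medians. The 88 cytosolic ribosomal proteins had a median log2 fold change of -0.07 with 11 positive. All 92 in the files summed to 11280 ± 175 CPM in controls and 10810 ± 88.4 CPM after stress. At an unadjusted p under 0.05, 1 of the 88 was higher and 37 (42.0%) were lower, and the pools did not overlap for 1 higher (1.14%) and 49 lower (55.7%). The 99 nuclear genes of oxidative phosphorylation had a median of -0.06 with 21 positive and, at that p, 9 higher and 30 (30.3%) lower. Without overlap there were 11 higher (11.1%) and 35 lower (35.4%). Of all genes tested, 6.01% were higher and 5.11% lower at that p, and 9.33% and 8.76% without overlap. These shares are not matched for precision: the median SE was 0.034 in the cytosolic ribosome, 0.038 in oxidative phosphorylation and 0.085 over all genes. Without control pool 3 the lower genes at that p numbered 9 in the cytosolic ribosome and 14 in oxidative phosphorylation, with medians of -0.06 and -0.05. Over all 20146 genes, 775 were lower at that p without control pool 3 and 1030 with it. The mitochondrial ribosomal genes had 13 higher and 5 lower without that pool, and 12 higher and 7 lower with it. The cytosolic ribosome and oxidative phosphorylation each also held single transcripts that passed the test on the higher side, as the mitochondrial ribosome held Gadd45gip1. These were Rpl13 in the cytosolic ribosome (0.58 ± 0.04, adjusted p = 0.00541), and Cox8a (0.66 ± 0.04, adjusted p = 0.00365), Ndufab1 (0.43 ± 0.04, adjusted p = 0.0149) and Cox6a1 (0.37 ± 0.04, adjusted p = 0.0175) in the respiratory chain. Cox6a2, Cox8b and Rpl3l, forms known from striated muscle, had the lowest values of these sets, beside the muscle marker sum of 2424 CPM in control pool 3, and their link was not tested. Cox8a and Cox6a1 encode subunits of cytochrome c oxidase, and Ndufab1 the mitochondrial acyl carrier protein. Medians of the 3 sets are given side by side, and their difference was not tested.

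**Figure D5:**
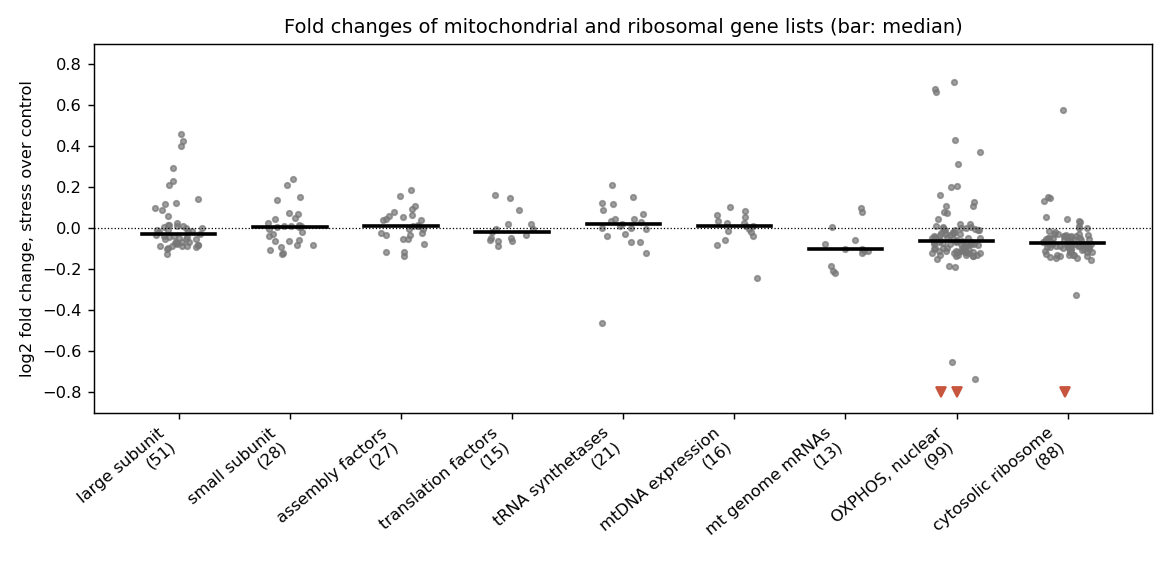
Log2 fold change of stress over control (y axis) of each tested gene in the 2 ribosomal subunits and in 7 related gene lists, with the number of genes in brackets and the median as a black bar. Red triangles mark Cox6a2, Cox8b and Rpl3l, which lie below the axis at -3.36, -2.92 and -2.85; the subunit medians of -0.03 and 0.00 lie above those of the mitochondrial genome mRNAs (-0.10), nuclear oxidative phosphorylation (-0.06) and the cytosolic ribosome (-0.07).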

How the data were processed

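The authors deposited whole-number read counts for each gene symbol, not normalized, separately for every library. FastQC, STAR 2.4 and HTSeq 0.9.1, and the builds GRCm39 and mm10, are named in the submitters' processing notes. Their roles, and whether HTSeq counted by strand, are not stated in the sources used here. The 5 tally rows of reads given to no gene held 15.29% to 16.22% of each file (7.05% to 7.70% not unique, 1.63% to 1.69% ambiguous) and were left out. The 6 libraries differed by more than sampling noise in every pair (chi-square per degree of freedom 10.98 to 36.41).

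The main test used edgeR 4.0.16 (R 4.3.3) with TMM factors, filterByExpr (minimum count 10), the quasi-likelihood F test, and Benjamini-Hochberg adjustment over 20146 genes with a threshold of 0.05. Levels are CPM with TMM factors; SEs of log2 fold changes were derived from the F statistic. GENCODE M21 gave lengths and GC content (for 95.2% of genes tested) and exon overlaps, and minimap2 2.31-r1302 gave pseudogene matches. DESeq2 1.42.0, other factors and filters, GC and length offsets, a replicate block and leaving out each pool were alternatives. Sums and related lists without control pool 3 were added after seeing the data.

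The labels number the pools 1 to 3 in both groups. Across genes, pools that share a number deviated together (correlations 0.34, 0.22 and 0.13, all over 0.1), a hint of pairing from the data that the labels do not explain. The main test has no block, and the blocked value is printed where it changes a call. Genes named were those past the threshold, the 12 of smallest p, the 3 highest and 3 lowest in level per kilobase and in fold change, Dap3, Ptcd3, the S18 relatives, the exit tunnel and stalk genes, and up to 3 genes per related list; other genes with an unadjusted p under 0.05, and neighbours of named genes, were added after their values were seen. The genes and lists were chosen with earlier results of these data known. No test over the list of genes was made.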

Additional observations from a re-analysis of the deposited data

How the results depend on the processing

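The count of mitochondrial ribosomal transcripts that passed the test was 1. It was 5 with DESeq2 (Gadd45gip1, Mrpl34, Mrpl38, Mrpl43 and Mrpl57) and 2 with the GC content and length correction (Gadd45gip1 and Mrpl43). It was 0 with the replicate block and 0 without any 1 of the 6 pools (range 0 to 0). Over all genes tested, these settings called 330, 42, 22 and 2 to 14 genes, against 26 in the main test. Among the 80, the count was 1 with the replicate block and the GC and length correction together, where Gadd45gip1 had an adjusted p of 0.0459. It was also 1 under the 5 other settings (no low-count filter, robust spread, RLE factors, upper-quartile factors, library totals). Over all genes tested, 47 were called with the block and correction together and 25 to 49 under the 5 other settings. Among the named genes, the replicate block changed no other call. The median log2 fold change was -0.015 and lay between -0.030 and -0.016 without 1 pool. The log2 ratio of the summed level was -0.007, between -0.010 and -0.004 without 1 pool, -0.012 with RLE factors and -0.014 with upper-quartile factors. The 19 genes with an unadjusted p under 0.05 had the same sign in every one of the 15 alternatives. They were chosen by that p in these same counts, and their pools did not overlap. Their sign could therefore hardly turn, and no conclusion is drawn from it. Of the 80 tested genes, 22 changed sign in at least 1 alternative. Among named genes the sign turned for 4 when 1 pool was left out: Mrpl22 ranged from 0.00 to 0.02 (turned without stress pool 1), Mrpl39 from -0.06 to 0.00 (control pool 1), Mrpl54 from -0.01 to 0.06 (control pool 2) and Mrps18c from -0.05 to 0.05 (control pool 3 or stress pool 2). The cause was not tested. With 3 pools a group the number of pools limits what could be called, and fits without 1 pool have fewer samples.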
